A study of Mus musculus with 18 samples.

Results

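The 10 genes of the brain's blood vessels were followed, 10 of the 55291 gene symbols measured, chosen by name as genes of endothelial cells and pericytes. They were Cldn5, Esam, Pecam1, Icam2, Flt1, Slco1a4, Nostrin and Apold1, which are endothelial genes, and Pdgfrb and Rgs5, which are pericyte genes. All 10 were listed in all 18 libraries. RNA was sequenced from the right hippocampus of mice given kainic acid, which models mesial temporal lobe epilepsy, and of control mice, with 3 samples in each of 3 groups, each sample a pool of 3 to 4 hippocampi. Each homogenate gave an input library of all its RNA and an immunoprecipitate (IP) library of the RNA on ribosomes pulled down with an anti-GFP antibody. The level of each gene was compared between groups within input, and the IP to input ratio was compared between groups.

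All mice were wild-type C57BL/6J males. At 6 weeks old they received the virus AAVDJ-GfaABC1D-EGFP-Rpl10a in the right CA3 region, so the controls carried the tagged ribosomal protein too. Its promoter, GfaABC1D, is a short form of the GFAP promoter that is active in astrocytes. AAV control mice had no second injection, and their RNA was taken 2 weeks after the virus. In the KA group 50 nL of 20 mM kainic acid, a glutamate receptor agonist, was injected into the right dentate gyrus 2 weeks after the virus, and RNA was collected 14 days later. The PBS group received phosphate-buffered saline in place of kainic acid, and its collection time is not given in the sources used here. Run 1 held KA #1 and #2 and AAV control #1 and #2, run 2 held KA #3 and AAV control #3, and run 3 held every PBS library, so the PBS group and its run cannot be told apart. KA samples were collected later after the virus than AAV control samples, and so at an older age, which cannot be told apart from kainic acid. Comparisons with KA share the KA samples, and those with a control share that control's samples.

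Endothelial cells line the capillaries of the brain and form the blood-brain barrier, with tight junctions that seal the gaps between cells and transporters that select what passes. Pericytes wrap the capillary wall and depend on signalling from endothelial PDGF-B to the receptor PDGFRβ. The end-feet of astrocytes cover both cell types, so an astrocyte preparation lies next to the vessel wall. In an input library of whole tissue, fewer cells of a type and less RNA per cell cannot be told apart.

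Library totals ranged from 7991681 to 16032180 counts, and the 10 genes together took 310 to 902 counts of an IP library and 898 to 1348 counts of an input library. Astrocyte markers were enriched in IP in every group, with 8 of 8 markers higher than in input. Their summed FPKM (fragments per kilobase of gene, scaled to library size) was 3129 to 4051 in AAV control IP against 369 to 378 in input, 2873 to 4684 against 429 to 440 in PBS, and 5179 to 6179 against 956 to 1018 in KA. Of the 90 values of the 10 genes in IP, 16 were under 10 counts and are marked here as low, and 7 were at or under 3 counts. KA IP held 10 of the 16 low values, AAV control IP 4 and PBS IP 2. The low values belonged to Pecam1 (4 libraries), Icam2 (8), Nostrin (3) and Esam (1). In input 5 of 90 values were low, of Icam2 in 4 libraries and Nostrin in 1.

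All 10 are protein-coding genes with no overlapping gene in the GENCODE annotation of GRCm38. Cldn5 is at chr16:18776847-18778262 on the plus strand, Esam at chr9:37528078-37538319 on the plus strand, Flt1 at chr5:147561604-147726011 on the minus strand and Rgs5 at chr1:169655501-169695813 on the plus strand. Nostrin is at chr2:69135800-69189330 and Apold1 at chr6:134981718-134986836, both on the plus strand, and Pecam1 at chr11:106654217-106750628 and Icam2 at chr11:106377656-106388075, both on the minus strand. Slco1a4, at chr6:141805440-141856199 on the minus strand, has close paralogs beside it, so its counts are uncertain where reads map to more than 1 of them. Promoters, from 250 bases before to 50 after the gene start, were found in RefSeq (GRCm38.p6) for 6 of the 10 genes. Those of Cldn5 (chr16:18776597-18776896, plus strand), the member with the highest level, and Flt1 (chr5:147725962-147726261, minus strand), a member called lower in KA IP against both controls, are shown 5′ to 3′ along the gene, with AGGAAG on either strand in capitals, a hexamer that holds the GGAA core bound by ETS factors of endothelial cells.
Cldn5: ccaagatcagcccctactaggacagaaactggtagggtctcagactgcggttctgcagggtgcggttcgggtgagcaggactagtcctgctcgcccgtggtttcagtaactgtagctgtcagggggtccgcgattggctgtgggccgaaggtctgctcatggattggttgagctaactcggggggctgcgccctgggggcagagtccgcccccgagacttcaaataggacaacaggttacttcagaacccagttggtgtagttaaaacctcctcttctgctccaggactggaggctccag
Flt1: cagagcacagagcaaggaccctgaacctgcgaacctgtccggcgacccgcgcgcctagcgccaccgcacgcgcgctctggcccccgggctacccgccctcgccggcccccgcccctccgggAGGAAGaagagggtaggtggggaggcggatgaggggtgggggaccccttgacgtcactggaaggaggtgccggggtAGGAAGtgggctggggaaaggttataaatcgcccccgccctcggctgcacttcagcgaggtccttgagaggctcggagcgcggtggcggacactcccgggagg
The Flt1 promoter held the hexamer at 2 places and the Cldn5 promoter held none. Of the 6 promoters 4 held it (Flt1, Slco1a4, Nostrin and Apold1), against 9498 of 27025 promoters in all (35.1%) and 12 of 28 promoters of the other endothelial and pericyte genes. A match is a description of the letters only.

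Across the 9 input libraries Cldn5, the claudin that seals the tight junctions of the blood-brain barrier, had the highest level of the 10 genes, with a mean of 16.4 FPKM and a range of 10.2 to 23.8. Rgs5, a regulator of G-protein signalling and a pericyte marker, followed at 8.69 FPKM (5.86 to 10.9), and the ranges of these genes overlapped. Esam, an adhesion molecule of endothelial tight junctions, stood apart from its neighbours at 2.42 FPKM (1.88 to 3.16), below every value of Rgs5 and above every value of Pdgfrb, the receptor for PDGF-B (mean 1.43). The next genes overlapped each other in turn. They were Slco1a4, an organic anion transporter of the barrier, at 1.17 FPKM, Nostrin, a trafficking protein of endothelial nitric oxide synthase, at 1.01, Apold1, an early response gene of endothelium, at 0.98, and Flt1, a VEGF receptor, at 0.97. Icam2, an adhesion molecule of resting endothelium, was at 0.67 FPKM, and Pecam1, the adhesion molecule CD31, was lowest at 0.32. Cldn5 and Pdgfrb led in IP, at 3.87 and 3.31 FPKM over 9 libraries, and the ranges of all neighbours in the IP order overlapped.

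**Figure D1:**
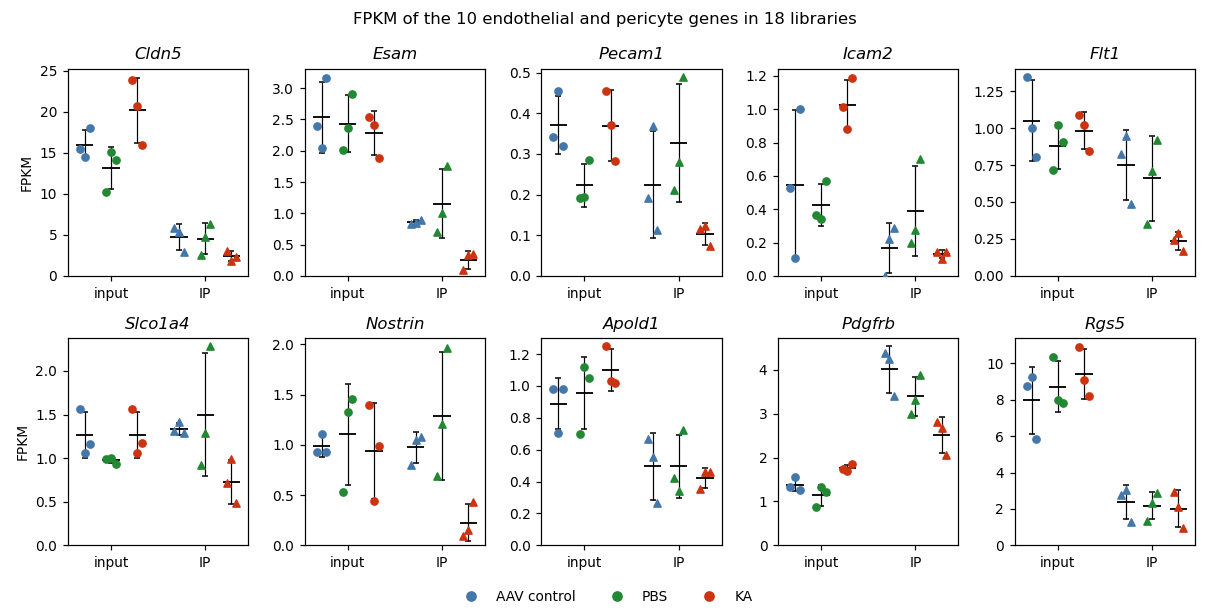
FPKM (y axis, from 0, 1 scale per gene) of each gene in the 18 libraries, as input (circles) and IP (triangles), with AAV control in blue, PBS in green and KA in red, and with lines and bars for mean and SD of 3 samples. Cldn5 falls from 10.2 to 23.8 FPKM in input to 1.83 to 6.32 in IP, while Pdgfrb is higher in IP than in input in each group.

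In KA against AAV control input, no member was called with all libraries included. With the filter of FPKM over 1 in all compared libraries, 5 of the 10 genes were tested and 0 were called by edgeR's quasi-likelihood test (adjusted p under 0.05), against 4.49% of all 10809 genes. Without that filter 10 were tested and 0 called, against 7.20% of all genes, and 0 of the 10 had an unadjusted p under 0.05. DESeq2 and limma-voom also called 0. Counts of 0 lie near the shares over all genes, so they do not show that the members were unchanged. The median log2 fold change of the 10 genes was 0.12, with 5 above 0, beside −0.03 over all genes tested.

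Cldn5 was at 23.8, 20.7 and 15.9 FPKM in KA input and at 15.5, 14.5 and 18 in AAV control input. The groups overlapped, because KA #3 was lower and AAV control #3 was higher than the other samples of their groups. The log2 fold change was 0.32 (SE 0.18, adjusted p = 0.425). Among the 4 libraries of run 1 alone it was 0.57 (SE 0.13, adjusted p = 0.000853), and with run as a covariate 0.32 (SE 0.17, adjusted p = 0.223). Calls over all genes rose as well in run 1 alone, to 4781 of 11489 with the FPKM filter and 6185 of 16014 without it. The members called there were 1 of 6 and 2 of 10. Without AAV control #3, Cldn5 was called in the fit without the FPKM filter, beside 3735 of all 16328 genes. Icam2 gave 1.01, 0.88 and 1.18 FPKM in KA and 0.53, 0.11 and 1.0 in AAV control, where #2 held 2 counts. Its log2 fold change without the FPKM filter was 0.81 (SE 0.62, adjusted p = 0.536), and 1.64 (SE 0.58, adjusted p = 0.0264) in run 1 alone, which is a second call that rests on the 2-count library.

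Pdgfrb and Apold1 were the members whose input groups did not overlap, 2 of 10 with KA higher, beside 15.0% of all genes. Pdgfrb was at 1.74, 1.71 and 1.84 FPKM in KA and at 1.33, 1.55 and 1.26 in AAV control, a log2 fold change of 0.36 (SE 0.18, adjusted p = 0.356). Rgs5, the other pericyte gene, was at 10.9, 9.07 and 8.20 FPKM in KA and at 8.76, 9.26 and 5.86 in AAV control, where the groups overlapped. The remaining endothelial genes had similar group means. Esam was at 2.28 ± 0.35 FPKM in KA and 2.54 ± 0.57 in AAV control (mean ± SD, n = 3), Flt1 at 0.98 ± 0.13 and 1.05 ± 0.27, Slco1a4 at 1.27 ± 0.26 and 1.26 ± 0.26, Nostrin at 0.94 ± 0.48 and 0.99 ± 0.11, and Pecam1 at 0.37 ± 0.09 and 0.37 ± 0.07.

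Against PBS, Cldn5 was higher in KA input. PBS samples gave 10.2, 15.1 and 14.2 FPKM, all below the 3 KA samples, and the log2 fold change was 0.60 (SE 0.15, adjusted p = 0.0153). It was 1 of the 3 genes tested with the FPKM filter, where 27.7% of all genes were called. Without the filter 3 of 10 were called, against 27.8% of all genes. The others were Icam2, at 0.37, 0.34 and 0.57 FPKM in PBS, with a log2 fold change of 1.24 (SE 0.39, adjusted p = 0.0307), and Pdgfrb, at 0.87, 1.32 and 1.22 FPKM in PBS, with 0.60 (SE 0.19, adjusted p = 0.0347). Icam2 held only 7, 7 and 11 counts in PBS input and was kept through its KA input counts of 19, 16 and 23. Its place in the counts given here was therefore not independent of the filter. DESeq2 without the FPKM filter called Cldn5 only. KA and PBS input did not overlap in 4 of 10 genes with KA higher, namely Cldn5, Icam2, Pdgfrb and Slco1a4, beside 20.8% of all genes. The median of the 10 genes was 0.26 beside 0.00 over all genes tested. Cldn5 lost its call without KA #1 (0.49), PBS #1 (0.49) or PBS #3 (0.60), Icam2 without any 1 of the 6 libraries, and Pdgfrb without any but PBS #2.

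PBS and AAV control input showed no called member, 0 of 3 with the FPKM filter and 0 of 10 without it, and 0 of 10 at an unadjusted p under 0.05. Over all genes edgeR called 0% in both fits, with 901 and 1159 genes at an unadjusted p under 0.05, while DESeq2 called 30 and 14 genes and limma-voom 0 in both, none of them a member. Without AAV control #3, edgeR called 4076 of 11164 genes with the FPKM filter and 4411 of 16110 without it, again with no member called. The 0% over all genes therefore depended on that library. Pecam1 was lower in every PBS sample (0.19, 0.19 and 0.28 FPKM) than in every AAV control sample (0.34, 0.45 and 0.32), with an adjusted p of 0.659. Slco1a4 was also lower in every PBS sample, at 0.99, 1.0 and 0.94 FPKM against 1.56, 1.06 and 1.17, with an adjusted p of 0.720.

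Markers of other cells moved in the same input comparisons. Microglia markers rose in KA against AAV control in 8 of 8 genes without the FPKM filter (summed FPKM 698 to 1231 in KA, 77.8 to 129 in AAV control and 91.1 to 103 in PBS) and astrocyte markers in 5 of 8. Choroid plexus markers ranged from 2489 to 4484 summed FPKM in KA input, from 16.3 to 2984 in AAV control and from 18.8 to 290 in PBS, and 5 of 5 tested were higher in KA than in PBS. Within AAV control, sample #3 held 16.3 summed FPKM of these markers against 2984 and 2118 in #1 and #2, and its Cldn5 level was the highest of the 3. Red blood cell genes summed to 2724 to 3198 FPKM in KA, 2232 to 2560 in AAV control and 2777 to 4091 in PBS input. No defining gene of these 4 lists was at 0 throughout a group, and their part in the values of the 10 genes was not tested.

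**Figure D2:**
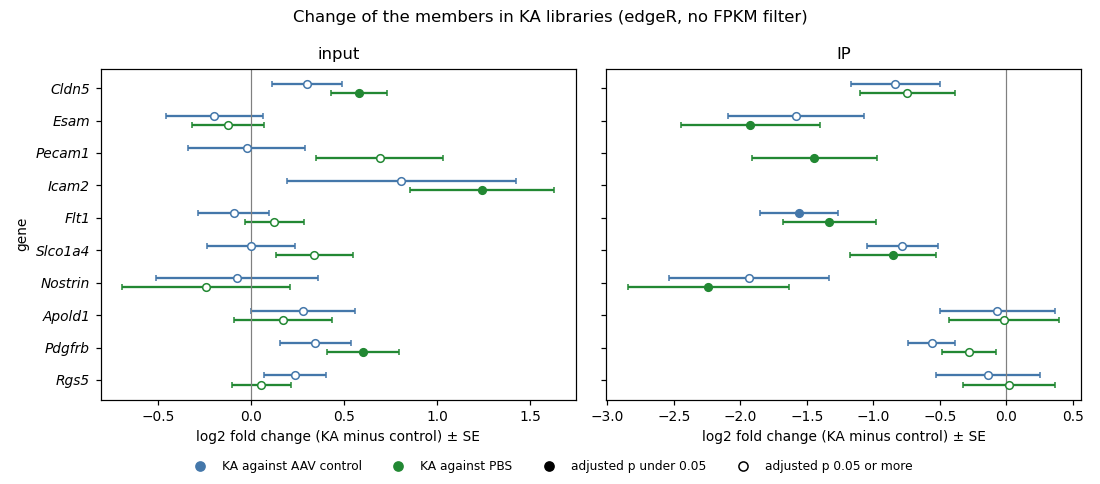
Log2 fold change (x axis, points with SE bars) of each gene in KA against AAV control (blue) and against PBS (green), in input (left) and IP (right), from edgeR without the FPKM filter, with filled points for adjusted p under 0.05. Filled points lie to the right of 0 in input, for Cldn5, Icam2 and Pdgfrb against PBS, and to the left of 0 in IP, where Flt1 is filled in both comparisons; genes with too few counts to be tested have no point.

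Further genes of the vessel wall, from lists of related genes, were examined in KA against AAV control input. Of 25 other endothelial genes tested without the FPKM filter, 1 was higher and 0 lower (median log2 fold change 0.18), namely Fli1, an ETS factor of endothelium and of leukocytes. Fli1 was at 0.93 ± 0.13 FPKM in AAV control and 2.70 ± 0.88 in KA (mean ± SD, n = 3), and its log2 fold change was 1.51 (SE 0.27, adjusted p = 0.012). Other pericyte genes had 0 of 14 called (median 0.22), smooth muscle genes 0 of 4 (median 0.29) and perivascular fibroblast genes 0 of 8 (median 0.60), in edgeR, beside −0.03 over all genes.

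Junction genes had 2 of 10 higher (median 0.28). F11r, the junctional adhesion molecule JAM-A, was at 2.44 ± 0.67 FPKM in AAV control and 8.35 ± 0.55 in KA, and its log2 fold change was 1.75 (SE 0.24, adjusted p = 0.00748 with the FPKM filter), while Jam2, JAM-B, rose from 2.28 ± 0.15 to 4.43 ± 0.44. Barrier transporter genes had 2 of 15 higher (median 0.11), Slco2b1 and Slc16a1, the monocarboxylate transporter MCT1. Of the VEGF, angiopoietin and PDGF-B pathway 1 of 13 rose (median 0.16). It was Angpt1, the ligand of the receptor Tie2, from 0.68 ± 0.21 to 1.44 ± 0.32 FPKM.

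Endothelial activation genes had 2 of 7 higher (median 0.60). This and the other list counts stand beside 7.20% of all genes called in the same fit, and nothing is read from them as particular to a list. The called activation genes were the leukocyte adhesion molecules Icam1, at 1.29 ± 0.31 FPKM in KA against 0.14 ± 0.06 in AAV control, and Vcam1, at 4.17 ± 0.32 against 1.76 ± 0.19 (log2 fold change 1.25, SE 0.14, adjusted p = 0.0031 with the FPKM filter). Vascular basement membrane genes had 2 of 11 higher (median 0.35), Lamb2, a laminin chain, and Sparc, a matrix protein, which went from 118 ± 61.9 to 506 ± 28.4 FPKM. In IP against input, Vcam1, Sparc and Jam2 were called higher in all 3 groups (3.0, 2.60 and 2.54 on the log2 scale in AAV control), while F11r was called lower in KA (−3.56) and in PBS (−1.40) and was at −1.78 in AAV control (adjusted p = 0.0658). Mean AAV control FPKM was also higher in IP than in input for Lamb2 (4.42 and 0.67) and Angpt1 (3.6 and 0.68). The same held for Icam1 (0.70 and 0.14) and Slc16a1 (10.4 and 4.99). It was lower in IP for Fli1 (0.31 and 0.93) and Slco2b1 (0.55 and 1.05). Which cells gave the KA rises of these genes was not tested.

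In IP against input, Cldn5, Esam and Rgs5 were called lower and Pdgfrb higher in every group without the FPKM filter, and the calls of the other members varied. In AAV control 4 members passed the FPKM filter, of which 2 were called lower and 1 higher, against 39.7% of all genes called. Without the filter 3 of 9 were lower and 1 higher, against 37.0% of all genes. In PBS 2 of 2 were lower with the filter (background 56.3%), and 4 of 9 were lower and 1 higher without it (52.2%). In KA 1 was lower and 1 higher of 2 with the filter (34.4%), and 7 of 9 were lower and 1 higher without it (32.7%). The median log2 fold change of the members was −0.61 in AAV control, −0.40 in PBS and −1.78 in KA, beside medians over all genes of −0.01, 0.06 and 0.01. These counts and medians cover different genes, since Icam2 was tested in KA alone and Nostrin in the controls alone. Icam2 was kept in KA through its input counts of 19, 16 and 23, against 3, 2 and 3 in IP, so its call was not independent of the filter. The same held in KA for Pecam1, with 28, 22 and 18 in input against 8, 8 and 5 in IP. It also held for Esam, with 72, 66 and 55 in input against 3, 10 and 11 in IP. Without TMM, on library totals alone, the median of all genes shifted to −0.16, 0.03 and −0.29.

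Cldn5 was lower in IP in every homogenate. Its IP to input FPKM ratio was 0.37, 0.37 and 0.16 in AAV control, 0.26, 0.31 and 0.45 in PBS, and 0.13, 0.09 and 0.14 in KA. The fitted log2 fold changes were −1.65 (SE 0.27, adjusted p = 0.00224), −1.43 (SE 0.26, adjusted p = 0.000565) and −2.85 (SE 0.21, adjusted p = 6.25e-05). KA ratios lay below all control ratios, and AAV control #3, at 0.16, was the control nearest to them.

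Rgs5, the pericyte marker, was at ratios of 0.32, 0.33 and 0.22 in AAV control, 0.13, 0.29 and 0.36 in PBS, and 0.27, 0.24 and 0.12 in KA, all below 1, and the 3 groups overlapped. Its log2 fold changes were −1.61 (SE 0.30, adjusted p = 0.00419) in AAV control, −1.90 (SE 0.25, adjusted p = 4.72e-05) in PBS and −1.94 (SE 0.28, adjusted p = 0.000791, without the FPKM filter) in KA. Esam was lower in IP as well, with ratios of 0.34, 0.41 and 0.28 in AAV control, 0.35, 0.43 and 0.60 in PBS, and 0.04, 0.14 and 0.19 in KA, where sample #1 held 3 counts. Without the FPKM filter its log2 fold changes were −1.43, −1.08 and −2.81 (adjusted p = 0.00905, 0.00607 and 0.00084).

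Pdgfrb went the other way, with more in IP than in input in all 9 homogenates. Its counts were 223, 222 and 239 in AAV control IP against 58, 81 and 87 in input, ratios of FPKM of 3.31, 2.74 and 2.70. In PBS the ratios were 3.42, 2.51 and 3.18, and in KA 1.61, 1.57 and 1.11. The log2 fold change was 1.68 (SE 0.18, adjusted p = 0.000317) in AAV control, 1.62 (SE 0.21, adjusted p = 1.14e-05, without the FPKM filter) in PBS and 0.72 (SE 0.16, adjusted p = 0.00896) in KA. On library totals the KA value was 0.49 (adjusted p = 0.0567), which was no longer called. None of its IP counts was low.

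Of Flt1, Slco1a4 and Nostrin, Flt1 was called lower in KA IP, Slco1a4 was not called and Nostrin was not tested there. Flt1 had ratios of 0.61, 0.94 and 0.60 in AAV control, 0.49, 0.70 and 1.02 in PBS, and 0.22, 0.29 and 0.20 in KA, and was called only in KA (−1.78, SE 0.21, adjusted p = 0.000266, without the FPKM filter). Slco1a4 had ratios of 0.84, 1.34 and 1.11 in AAV control, 0.93, 1.28 and 2.45 in PBS, and 0.46, 0.93 and 0.41 in KA, with no call in the unpaired fits. With the homogenate as a block it was called higher in PBS IP (2 higher and 4 lower of 9 members then). Nostrin had ratios of 0.86, 0.95 and 1.16 in AAV control and 1.32, 0.91 and 1.35 in PBS, and 0.07, 0.34 and 0.44 in KA, where its IP counts were 2, 3 and 9.

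Pecam1 and Icam2, called lower in KA IP (−1.51 and −2.64, adjusted p = 0.013 and 0.00215, without the FPKM filter), had only low counts there, 8, 8 and 5 for Pecam1 and 3, 2 and 3 for Icam2. Icam2 held 0, 4 and 7 counts in AAV control IP, and a count of 0 allows up to 3. Apold1 had ratios of 0.28 to 0.45 in KA, 0.27 to 0.79 in AAV control and 0.31 to 0.69 in PBS, which overlapped. It was called lower in KA (−1.06, adjusted p = 0.023) and in PBS (−0.94, adjusted p = 0.0341). The KA call remained only without KA IP #3 among the 6 fits that left out a library. The PBS call remained only without PBS input #1 or PBS IP #3, and it was lost on library totals.

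**Figure D3:**
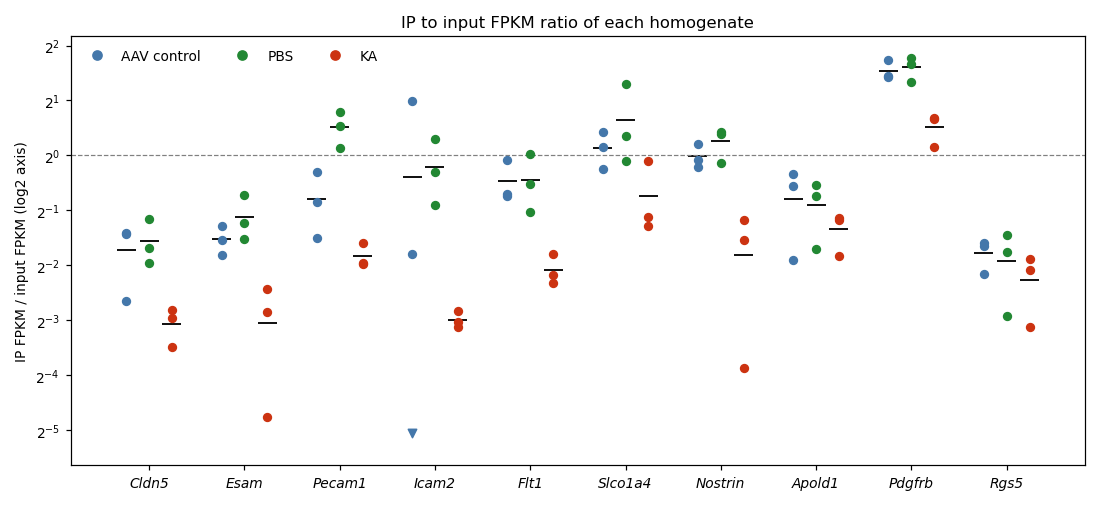
IP FPKM divided by input FPKM of the same homogenate (y axis, log2 scale) for each gene, with points for homogenates of AAV control (blue), PBS (green) and KA (red), black lines for the group mean, a dashed line at 1 and a downward triangle for Icam2 in AAV control #1, which had 0 IP counts and is drawn at an arbitrary height. Pdgfrb lies above 1 in all 9 homogenates, Cldn5, Esam, Apold1 and Rgs5 lie below 1 in all 9, and every KA point except those of Pdgfrb lies below 1.

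Other vessel genes in the IP were mixed. Of the other endothelial genes tested without the FPKM filter, 9 of 23 were lower and 1 higher in AAV control, 11 of 24 lower and 2 higher in PBS, and 14 of 23 lower and 1 higher in KA (medians −1.11, −0.86 and −1.39). S1pr1, a sphingosine-1-phosphate receptor that astrocytes also express, was the gene called higher in each group (3.17 in AAV control, 2.97 in PBS and 1.27 in KA on the log2 scale), with Nos3 as the second in PBS. Other pericyte genes were lower in 5 of 12, 5 of 12 and 8 of 14 and higher in 1, 3 and 2. Red blood cell genes, which the tagged cells should lack, were lower in 4 of 5, 5 of 5 and 5 of 5, with medians of −3.21, −3.55 and −3.98, and neuron markers in 8 of 8, 8 of 8 and 6 of 8, with medians of −2.41, −2.39 and −0.97.

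**Figure D4:**
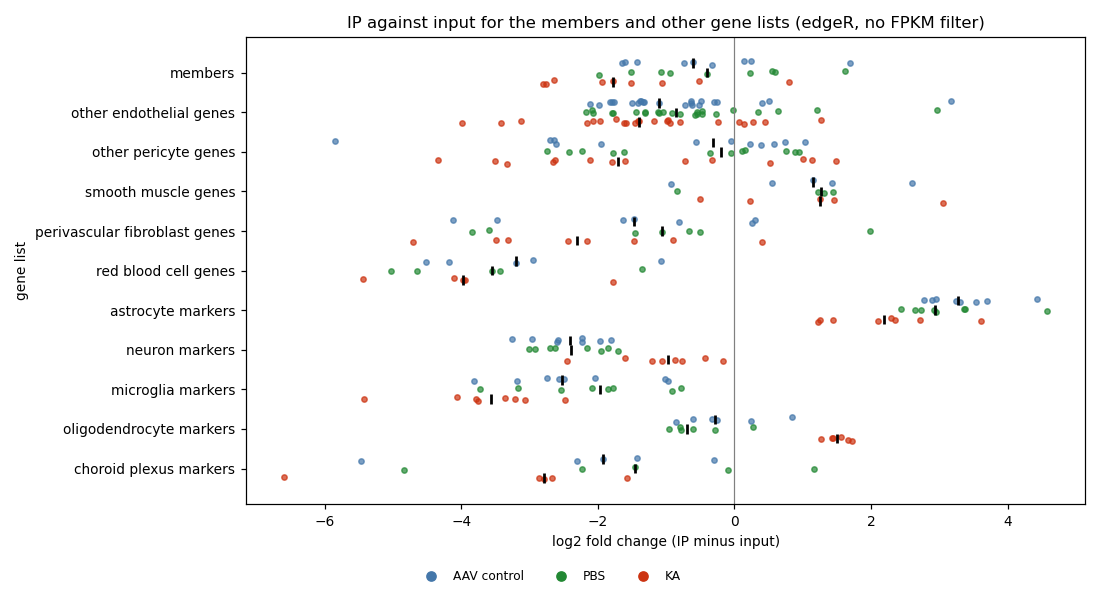
Log2 fold change of IP against input (x axis) for each gene of the members and of 10 other lists (y axis), in AAV control (blue), PBS (green) and KA (red), from edgeR without the FPKM filter, with black ticks for the list median. Astrocyte markers lie to the right of 0 and red blood cell genes to the left, with member medians of −0.61, −0.40 and −1.78 between them.

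The IP to input ratio of the members was lower in KA than in both control groups. Averaged over the 10 genes it was 0.35, 0.45 and 0.34 in the KA homogenates, 0.79, 1.07 and 0.71 in AAV control, and 0.91, 0.90 and 1.31 in PBS, so the KA values lay below all others. The means were 0.38 ± 0.06, 0.86 ± 0.19 and 1.04 ± 0.23 (SD, n = 3). With 1 added to both FPKM values they were 0.62, 0.87 and 0.95, a smaller gap in the same order. Medians over the 10 genes were lower than the means, at 0.26 in KA, 0.65 in AAV control and 0.80 in PBS. The means include Pdgfrb, at 1.4, 2.9 and 3.0 in that order. They also include Icam2 in AAV control #2, at 2.0 on 4 IP against 2 input counts. Exact two-sided permutation of 3 homogenates against 3 cannot give a p below 0.1, the value of every comparison of single genes whose groups did not overlap. On FPKM with 1 added to both values, the ratio did not overlap between KA and AAV control in 7 of 10 genes with KA lower, beside 25.0% of all genes, and between KA and PBS in 8 of 10, beside 29.9%. Pecam1, Icam2 and Nostrin, all under 10 counts in every KA IP library, are in both counts and were kept by the filter through other libraries. Esam, in the count against PBS, was kept in the same way.

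In the test of the ratio itself (interaction of group and library kind), KA against AAV control called both members that passed the FPKM filter, Cldn5 and Pdgfrb, against 13.2% of all genes. Cldn5 had a difference of −1.19 on the log2 scale (SE 0.35, adjusted p = 0.0424) and Pdgfrb of −0.96 (SE 0.21, adjusted p = 0.0102). Within run 2 the Cldn5 ratios of KA #3 and AAV control #3 were close, at 0.14 and 0.16, while those of run 1 were 0.13 and 0.09 against 0.37 and 0.37. For Pdgfrb they were 1.11 against 2.70 in run 2, and 1.61 and 1.57 against 3.31 and 2.74 in run 1. Without the FPKM filter 2 of 10 were called, against 8.28% of all genes, namely Flt1 (−1.46, SE 0.34, adjusted p = 0.0183) and Pdgfrb (−0.90, SE 0.23, adjusted p = 0.0287), and Cldn5 was at −1.12 (adjusted p = 0.0813). With the homogenate as a block, 4 were called, Cldn5, Esam, Flt1 and Pdgfrb, while the calls over all 16822 genes went from 1393 to 4036. Esam, at 3, 10 and 11 counts in KA IP, was kept by the filter through other libraries. All 10 had a lower fitted ratio in KA, with a median of −1.02 beside −0.06 over all genes.

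Against PBS, Cldn5 was the 1 member tested with the FPKM filter and was lower in KA (−1.50, SE 0.37, adjusted p = 0.0104; background 25.5%). Without the filter 7 of 10 were lower in KA, against 20.5% of all genes called in either direction. These were Cldn5, Esam, Pecam1, Icam2, Flt1, Slco1a4 and Pdgfrb, with differences from −0.86 (Pdgfrb) to −2.52 (Icam2), and Rgs5 and Apold1 were at 0.01 and −0.16. Icam2 held 3, 2 and 3 counts in KA IP and 7, 7 and 11 in PBS input. Pecam1 held 8, 8 and 5 in KA IP, so both rest on low counts. Icam2, Pecam1 and Esam, the last at 3, 10 and 11 in KA IP, were kept by the filter through other libraries. Their calls were therefore not independent of it. With the homogenate as a block 8 were called, while the calls over all 17130 genes went from 3508 to 5366. The addition was Nostrin (−2.03, adjusted p = 0.0314), at 2, 3 and 9 counts in KA IP and also kept through other libraries. The median was −1.35 beside −0.12 over all genes. PBS against AAV control called 0 of 2 and 0 of 10 members by edgeR, 0% of all genes in both fits (399 and 751 at an unadjusted p under 0.05, 0 of them members), and DESeq2 and limma-voom called no member.

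Leaving out 1 homogenate changed these counts. Against AAV control without the FPKM filter the count fell to 0 without any 1 homogenate other than AAV control #3, and was 3 without that one. With the FPKM filter it was 0 without AAV control #1, KA #2 or KA #3. Against PBS without the filter the count was 0 without PBS #2, 1 without PBS #3 or KA #1 and 2 without KA #2. Of the 6 fits that left out a homogenate, the Pdgfrb call was lost in 6, Icam2 in 5, Esam and Slco1a4 in 4 each and Pecam1 and Flt1 in 3 each, and the Cldn5 call with the FPKM filter was lost without KA #2 or PBS #3.

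Other cell types moved in the same ratio. Without the FPKM filter, astrocyte markers were lower in 5 of 8 in KA against AAV control (median −1.25) and 4 of 8 against PBS (−1.05), microglia markers in 2 of 8 (−1.40) and 6 of 8 (−1.65), and neuron markers were higher in 5 of 8 and 7 of 8 (1.44 and 1.30). Other endothelial genes were lower in 2 of 25 and higher in 1 against AAV control (−0.56), and lower in 2 of 25 against PBS (−0.56). Other pericyte genes were lower in 2 of 14 (−0.40), and in 3 of 14 with 1 higher (−0.65). Oligodendrocyte markers were higher in 2 of 6 (1.81) and 6 of 6 (2.11). The part of these shifts in the members' ratios was not tested.

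Within IP libraries, Flt1 was the member called lower in KA against both controls without the FPKM filter. It was at 36, 41 and 25 counts (0.24, 0.29 and 0.17 FPKM) in KA IP, at 103, 122 and 84 counts (0.82, 0.94 and 0.49 FPKM) in AAV control, and at 76, 110 and 130 counts (0.35, 0.71 and 0.92 FPKM) in PBS, with every KA value below every control value. Its log2 fold change was −1.56 (SE 0.29, adjusted p = 0.0086) against AAV control and −1.33 (SE 0.35, adjusted p = 0.00931) against PBS. Flt1 input overlapped between the groups, at 0.84 to 1.09 FPKM in KA, 0.81 to 1.34 in AAV control and 0.71 to 1.02 in PBS.

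Against AAV control, 1 of 2 members was called lower with the FPKM filter, Pdgfrb (−0.62, SE 0.17, adjusted p = 0.0347; background 20.1%), and 1 of 8 without it, Flt1 (background 19.8%). The replicate block raised these counts to 2 (Cldn5 and Pdgfrb) and 5 (Esam, Flt1, Nostrin, Pdgfrb and Slco1a4). With run as a covariate the counts were the same, and in run 1 alone they were 2 and 5, with Cldn5 in place of Slco1a4. Esam and Nostrin were kept by the filter through their AAV control counts, so their calls were not independent of it. With the block, calls over all genes rose from 1960 to 3356 of 9729. Without the FPKM filter they rose from 3027 to 4912 of 15312. With run as a covariate they were 3914 and 5731, and in run 1 alone 4823 of 10474 and 6601 of 15299. The Pdgfrb call was lost without each library other than AAV control #3. Against PBS, 0 of 2 were called with the filter (37.0%), both with an unadjusted p under 0.05, and 5 of 9 without it (40.4%), Pecam1, Flt1, Slco1a4, Esam and Nostrin, all lower in KA. Pecam1, at 8, 8 and 5 counts in KA IP, Nostrin, at 2, 3 and 9, and Esam, at 3, 10 and 11, were kept through their PBS counts. Their calls were therefore not independent of the filter. DESeq2 called Cldn5 with the filter and limma-voom 0. Without KA #1 or PBS #3 the count of 5 fell to 1, and without KA #3 or PBS #2 to 3.

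KA IP did not overlap AAV control IP in 5 of 8 tested genes with KA lower, beside 23.2% of all genes, nor PBS IP in 5 of 9, beside 30.4%. Nostrin and Esam in both counts, and Pecam1 in that against PBS, were kept by the filter through their control counts. Nostrin, at 0.10, 0.15 and 0.44 FPKM in KA IP against 0.80, 1.05 and 1.07 in AAV control and 0.69, 1.21 and 1.97 in PBS, had the largest differences (−1.93, adjusted p = 0.0541, and −2.24, adjusted p = 0.0106), at low KA counts. Rgs5 overlapped in all groups, at 2.94, 2.13 and 0.94 FPKM in KA IP, 2.78, 3.06 and 1.30 in AAV control and 1.36, 2.35 and 2.85 in PBS. Samples #3 of KA and AAV control, the libraries of run 2, were the lowest of their groups. PBS against AAV control IP called 0 of 3 and 0 of 9 members by edgeR, DESeq2 and limma-voom, 0 at an unadjusted p under 0.05, with 0% of all genes called with the filter and 0.0188% without it. With the filter 1153 genes had an unadjusted p under 0.05 and DESeq2 called 16.

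As a description over the 9 input libraries, which share runs and groups, the correlation of each gene's log2 CPM with the mean of the other 9 members ran from −0.08 for Rgs5 and 0.19 for Esam to 0.86 for Cldn5. The mean standardized level of the members was highest in KA #1 (1.10) and lowest in PBS #1 (−1.13), and was −0.26 to 0.35 in all other samples. Genes outside the 10 with the highest Pearson r to that mean, among 10554 with FPKM over 1 in all 9 libraries, included Med7 (0.96), Oat, Vps37c, Ints6l, Stx6, Morf4l2, Katna1, Glrx3 and Smim7 (0.94), none of them in the other vessel or cell type lists.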

How the data were processed

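Reads were aligned by the authors to mm10 (GRCm38) with STAR and counted, with featureCounts named in the submitters' processing notes. The strandedness and annotation release are not given in the sources used here. The authors deposited for each library a count per gene symbol, as whole numbers without normalization, and an FPKM value, which is the count scaled by library total and gene length. Library totals ranged from 7991681 to 16032180 counts, and intervals and floors from counts cover counting error only.

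Normalization was by TMM, and the quasi-likelihood test of edgeR 4.0.16 was run on the counts under R 4.3.3, with p-values adjusted by Benjamini-Hochberg over all genes tested and a threshold of 0.05. The main fit kept genes with FPKM over 1 in all compared libraries, after the filter the study used for its IP samples. Because 1 to 5 members passed, each result is also given without that filter, on genes kept by edgeR's filterByExpr. Fits held the groups compared only. The change of the IP to input ratio was the interaction of group and library kind over 12 libraries. Fold changes are log2. DESeq2 1.42.0 and limma-voom (limma 3.58.1) were alternatives, as were library totals, a replicate block, run, and leaving out each library. Fits were tested on simulated counts. Ratios of FPKM were taken per homogenate, and exact permutation used log2(FPKM + 1). Groups come from the labels. Samples were pools of hippocampi, so p-values measure the spread between pools.

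IP and input libraries of the same number came from the same homogenate. For KA and AAV control, residuals of same-numbered libraries correlated at 0.352, 0.444 and 0.55 in input and 0.348, 0.529 and 0.551 in IP. Different-numbered libraries of run 1 correlated too, at 0.264 and 0.484 in input and 0.22 and 0.403 in IP. Number and run were therefore not separated here. A fit with the number as a block was run beside the reported fits, which are unpaired. For KA and PBS the same-numbered correlations were −0.294 to 0.106. Named genes were all 10 members, up to 3 called genes of each vessel list with the largest change in KA against AAV control input, and the 10 genes most like the members, of which 1 is not reported here. Nos3 and S1pr1 were named after their values were seen. The members and lists were chosen with earlier results of these data known.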

Additional observations from a re-analysis of the deposited data

Results flagged for a closer look

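The IP to input ratio differed between groups in the interaction test of edgeR for several members. With the FPKM filter, the difference of KA from AAV control was −1.19 for Cldn5 and −0.96 for Pdgfrb on the log2 scale (adjusted p = 0.0424 and 0.0102), and that of KA from PBS was −1.50 for Cldn5 (adjusted p = 0.0104). Without the filter, KA differed from AAV control by −1.46 for Flt1 and by −0.90 for Pdgfrb (adjusted p = 0.0183 and 0.0287).

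Without the filter, KA differed from PBS by −1.29 for Cldn5, −1.77 for Esam, −1.42 for Flt1, −2.52 for Icam2, −0.86 for Pdgfrb, −2.10 for Pecam1 and −1.16 for Slco1a4, with adjusted p-values from 0.0164 (Pecam1) to 0.0463 (Slco1a4). The values of Icam2 and Pecam1 in KA IP are all under 10 counts, and Icam2 held 7, 7 and 11 counts in PBS input. Icam2, Pecam1 and Esam were kept by the filter through libraries other than KA IP, so these calls were not independent of it. Pecam1 had a mean IP to input FPKM ratio of 0.57 in AAV control, with all 3 homogenates below 1, and 1.42 in PBS, with all 3 above 1. The interaction test did not call this difference (adjusted p = 0.907).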

How the results depend on the processing

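Counts of called members follow, with the unfiltered fits and their alternatives chosen after seeing the data. Dropping the FPKM filter gave 3 for KA against PBS input, 8, 5 for IP against input in KA and PBS, 5 for KA against PBS IP and 7 for the ratio against PBS. In run 1 alone KA against AAV control gave 1 (2 unfiltered) in input and 2 (5) in IP, and run as a covariate 2 (5) in IP. Calls over all genes also rose in these fits. Library totals gave 1 for IP against input in KA, and 0 (3) for KA against AAV control IP. DESeq2 gave 1 for KA against PBS input unfiltered, 1 for KA against PBS IP and 3 for KA against AAV control IP unfiltered. Limma-voom gave 3 for both unfiltered IP comparisons of KA and 1 for the ratio against AAV control.

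With the replicate block KA against AAV control IP gave 2 (5 unfiltered), the unfiltered ratio against AAV control 4, and unfiltered KA against PBS IP, where numbers do not pair, 3. In KA against AAV control the block also raised the calls over all genes. In the ratio fits the block was the homogenate, which does pair IP and input. Other counts stayed within 1.5 times.

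Leaving out 1 replicate gave 0 to 1 for unfiltered KA against AAV control input, 0 to 1 (0 to 2 unfiltered) for KA against PBS input, 0 to 2 (1 to 3) for KA against AAV control IP, 0 to 1 (1 to 6) for KA against PBS IP, 0 to 2 (0 to 3) for the ratio against AAV control and 0 to 2 (0 to 6) against PBS.

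The mean ratio of the members in KA was 0.472 on TMM-normalized CPM and 0.621 with 1 added to both FPKM values, beside 0.965 and 0.874 in AAV control and 1.05 and 0.947 in PBS. With only the 1 member over 1 FPKM in all 18 libraries it was 0.119 in KA, 0.302 in AAV control and 0.338 in PBS. Of single called members, 98 alternatives lost the call, 288 kept it and 0 reversed. Low IP counts limit Icam2, Pecam1, Nostrin and Esam, whose KA values rest on 2 to 11 counts.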
